A study of Mus musculus with 9 samples.

Results

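The CatSper channel subunits were followed here as the genes whose symbols begin with Catsper in the deposited feature table. The rule found 11 of 32285 genes, namely Catsper1, Catsper2, Catsper3, Catsper4, Catsperb, Catsperd, Catspere1, Catspere2, Catsperg1, Catsperg2 and Catsperz. The data are droplet single-cell RNA-seq libraries (10x Genomics) in which 3' tags were counted by unique molecular identifier (UMI), each from the testes of 1 mouse at postnatal day 24. There were 4 control mice, 2 NELF-B conditional knockout (cKO) mice and 3 TDP-43 cKO mice, all labelled C57BL/6. Per the study's methods, cKO mice carried 1 floxed and 1 null allele of Nelfb or of Tardbp together with the Stra8-iCre transgene, which acts in germ cells from spermatogonia onward. The study places full penetrance of this deletion within a span of ages that includes the age studied. The controls were littermates or other mice, and the labels do not give the alleles each of them carried. The deposited name of control replicate 2 contains the word het, which the labels do not explain. NELF-B is a subunit of the complex that holds RNA polymerase II in promoter-proximal pausing, and TDP-43, the product of Tardbp, is an RNA-binding protein.

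CatSper is the calcium channel of the sperm flagellum. Catsper1, Catsper2, Catsper3 and Catsper4 each encode a pore-forming subunit. The pore is surrounded by the auxiliary transmembrane subunits beta, gamma, delta and epsilon, which are encoded by Catsperb, the Catsperg genes, Catsperd and the Catspere genes, and Catsperz encodes the small soluble subunit zeta, which binds the calcium sensor EFCAB9. The channel drives the hyperactivated beat that sperm need for fertilisation, and male mice that lack a pore subunit are infertile.

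Promoters are printed for members of each expression timing, since the stage at which the genes came on is the main result. RefSeq (build GRCm38.p6) gave windows for 9 of the 11 members, 12 windows in all, each running from 250 bases before to 50 after a start site. They are written 5' to 3' on the gene's strand with CpG dinucleotides in capitals. Catsper3 (chr13:55784329-55784628, plus strand) and Catsper4 (chr4:134227334-134227633, minus strand) encode pore subunits whose transcripts rose in round spermatids.

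Catsper3: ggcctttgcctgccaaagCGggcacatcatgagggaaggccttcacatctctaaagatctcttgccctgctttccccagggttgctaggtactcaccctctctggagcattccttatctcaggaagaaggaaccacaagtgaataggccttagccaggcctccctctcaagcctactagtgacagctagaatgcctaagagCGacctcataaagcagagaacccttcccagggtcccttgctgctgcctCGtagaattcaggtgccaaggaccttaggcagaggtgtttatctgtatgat

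Catsper4: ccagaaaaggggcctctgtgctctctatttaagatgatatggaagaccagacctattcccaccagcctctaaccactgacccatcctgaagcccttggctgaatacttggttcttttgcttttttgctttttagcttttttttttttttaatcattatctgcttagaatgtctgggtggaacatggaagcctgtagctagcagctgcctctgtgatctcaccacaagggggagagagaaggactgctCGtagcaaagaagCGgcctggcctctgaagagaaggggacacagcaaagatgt

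Catsper2 (chr2:121413743-121414042, minus strand) and Catsperz (chr19:6925331-6925630, minus strand) had their highest levels in diplotene cells.

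Catsper2: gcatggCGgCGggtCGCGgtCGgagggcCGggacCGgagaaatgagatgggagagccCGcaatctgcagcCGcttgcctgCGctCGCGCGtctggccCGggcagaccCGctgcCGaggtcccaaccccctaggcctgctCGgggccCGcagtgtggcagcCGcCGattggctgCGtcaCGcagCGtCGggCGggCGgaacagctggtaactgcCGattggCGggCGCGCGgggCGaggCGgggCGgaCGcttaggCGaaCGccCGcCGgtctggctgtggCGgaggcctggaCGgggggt

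Catsperz: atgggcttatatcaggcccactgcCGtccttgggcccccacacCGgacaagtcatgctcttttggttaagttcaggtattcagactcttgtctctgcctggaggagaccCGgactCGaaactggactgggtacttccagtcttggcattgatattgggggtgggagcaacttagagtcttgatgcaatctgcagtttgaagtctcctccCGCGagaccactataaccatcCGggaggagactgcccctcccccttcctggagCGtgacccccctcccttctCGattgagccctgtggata

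Catsperb (chr12:101404423-101404722, plus strand) and Catspere1 (chr1:177808169-177808468, plus strand) were higher in pachytene than in earlier spermatocytes.

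Catsperb: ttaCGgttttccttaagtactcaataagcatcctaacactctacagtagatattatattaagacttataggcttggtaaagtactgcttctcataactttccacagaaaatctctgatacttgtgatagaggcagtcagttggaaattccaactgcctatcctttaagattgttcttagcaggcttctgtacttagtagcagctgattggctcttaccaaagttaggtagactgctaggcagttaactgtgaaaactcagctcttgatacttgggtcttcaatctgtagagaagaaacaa

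Catspere1: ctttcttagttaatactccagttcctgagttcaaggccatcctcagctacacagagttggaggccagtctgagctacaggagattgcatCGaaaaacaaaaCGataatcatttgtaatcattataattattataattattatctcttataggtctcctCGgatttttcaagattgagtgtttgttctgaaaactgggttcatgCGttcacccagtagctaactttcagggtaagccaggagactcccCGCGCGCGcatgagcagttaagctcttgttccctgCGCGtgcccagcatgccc

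The windows differed widely in base composition. The Catsper2 window held 41 CpG dinucleotides and was 74.7% G and C, whereas the windows of Catsper3, Catsper4 and Catsperb held 3, 2 and 1 CpG dinucleotides. The median over 32851 RefSeq windows of this length was 7, with 52.7% G and C. The 4 motifs named here were searched on both strands, and each was found in 1 of the 12 windows. TGACGT, from the cAMP response element, was in a Catsperd window (chr17:56626797-56627096, plus strand) and in 7.51% of all windows. CAGTTG, a MYB recognition sequence, was at 2 positions of the Catsperb window and in 13.7% of all windows. GTTGCC, part of the X-box, was in a Catspere2 window and in 12.5% of all, and TATAAA was in a Catsperg1 window and in 13.6% of all. A match is a description of the letters only.

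In the GENCODE vM21 annotation of GRCm38, Catsper2 (chr2:121392631-121413792, minus strand) overlaps Pdia3 on the other strand and Gm14001 on its own, and Catsperz (chr19:6922371-6925380, minus strand) overlaps Kcnk4 on its own strand. Catsperb overlaps Gm24542 and Catspere2 overlaps Gm8010, also on the same strand. Reads of each of these same-strand pairs may not be fully separated. The transcripts of Catsperg1 (chr7:29181321-29214035, minus strand) and Catsperg2 (chr7:29697219-29727032, minus strand) were 96.5% identical over their aligned bases and 60.4% identical over the aligned part of their last 500 bases, where 3' tags fall. Catspere1 (chr1:177808550-177962233, plus strand), listed there as an unprocessed pseudogene, and Catspere2 (chr1:177983423-178172704, plus strand) were 92.5% and 54.7% identical in the same comparisons. The ends of each pair thus differed more than the whole transcripts, and how reads were split within each of these pairs was not tested.

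Germ cells were divided into spermatogonia (SG), preleptotene to zygotene spermatocytes (pL/L/Z), pachytene spermatocytes (P), diplotene spermatocytes (D) and round spermatids (RS), with no CatSper gene among those used for clustering. Libraries held between 119203347 and 159407373 UMIs, and each of the 36 pairs of libraries shared 1 to 24 cell barcodes. The control sums held 210 to 585 P cells, 74 to 242 D cells and 450 to 912 RS cells. All 6 P markers and all 8 RS markers were detected in their stage in each control mouse. Clusters were named from these same markers, so their detection does not test the names. The NELF-B cKO mice gave 184 and 41 P cells and 505 and 14 RS cells, and the TDP-43 cKO mice 5, 132 and 97 P cells and 5, 68 and 94 RS cells. Only sums of at least 10 cells were fitted. Levels are CPM, a gene's UMIs as a share of all UMIs of 1 mouse and stage, scaled so that all genes sum to 1000000.

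The targeted genes were checked first. In SG, Nelfb stood at 63.3 to 76.3 CPM for control and at 5.83 and 5.09 CPM for NELF-B cKO. In RS, however, Nelfb was at 7.39 to 20.2 CPM in the control mice and at 17.6 and 50.7 CPM in the NELF-B cKO mice (the latter from 14 cells), so the RS that remained in this genotype were not lower in Nelfb. Tardbp was at 167 to 194 CPM in pL/L/Z of the control mice and at 43.4 to 84.9 CPM in the TDP-43 cKO mice, but in P it was at 129 to 149 CPM in the control mice and still at 117 and 113 CPM in TDP-43 cKO replicates 2 and 3. Per the methods the floxed parts are an internal exon of Tardbp and the exons at the start of Nelfb, away from the 3' ends that were counted, so these levels do not by themselves show which cells had lost either gene.

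In the control mice, Catsper1, Catsper3 and Catsper4 rose steeply in RS, Catsper2 and Catsperz peaked in D, and the genes of the beta, gamma, delta and epsilon subunits rose into P and fell in RS. Catsper3 was at 3.13, 0.720, 1.49 and 1.38 CPM in P and at 178, 132, 172 and 193 CPM in RS of the 4 mice. The rise from P to RS was 114-fold (log2 fold change 6.83 ± 0.23, standard error, adjusted p = 5.3e-15 by edgeR's quasi-likelihood test with Benjamini-Hochberg adjustment). At this step 40.7% of the 20380 genes tested were called higher and 37.4% lower, so a call by itself did not set the members apart. The P values are at the level found in Leydig cells, so the fold compares RS with a level read as background and is not an exact size. In this contrast 5 members were higher and 6 lower.

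Catsper4 was at 4.65, 1.25, 2.57 and 2.07 CPM in P and at 179.8, 115, 175 and 173 CPM in RS (log2 fold change 6.09 ± 0.22). Catsper1 was at 1.61, 0.568, 0.996 and 0.661 CPM in P and at 70.8, 48.1, 59.6 and 60.8 CPM in RS (log2 fold change 6.08 ± 0.19). For each of these 3 pore genes every RS value lay above every P value, and control replicate 2 had the lowest RS value. From P to D their log2 fold changes were 0.34 ± 0.27 for Catsper1, 0.26 ± 0.33 for Catsper3 and -0.04 ± 0.29 for Catsper4, and none passed the test. From D to RS they rose by 5.74 ± 0.20, 6.58 ± 0.25 and 6.13 ± 0.24.

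The place of this step depends on how 1 cluster was named. That cluster held 62.5% of the RS markers and 60% of the D markers and was counted as RS by a rule set after the clusters were seen. With clusters named by their highest marker score alone, the rises from P to D were 2.93 for Catsper1, 3.22 for Catsper3 and 2.79 for Catsper4, and those from D to RS were 3.56, 4.04 and 3.67. From P to RS they were 6.48, 7.26 and 6.46 under that naming, which was tried after seeing the data.

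In P and D, no level of these 3 transcripts was above the highest found in Leydig cells, which should lack them. In these steroid-producing cells between the tubules, Catsper3 was at 7.04, 0.912, 2.49 and 5.38 CPM in the control mice, Catsper1 at 0.456 to 3.84 CPM and Catsper4 at 1.37 to 5.12 CPM. In barcodes of 1 to 100 UMIs, which hold mostly RNA free of cells, Catsper3 was at 78.0, 29.1, 57.4 and 65.7 CPM. The P and D values of the trio are therefore read as background, and the fold changes of the trio from P or D to RS are not exact sizes. The part of RNA free of cells in these P and D values was not tested. In P against pL/L/Z the trio was called lower, by log2 fold changes of -1.08 ± 0.29 for Catsper3, -0.72 ± 0.26 for Catsper4 and -0.59 ± 0.26 for Catsper1, and the last call (adjusted p = 0.049, edgeR) was lost with clusters at resolution 1.5, with clusters named by score alone and with either the gamma or the epsilon pair summed. In pL/L/Z, Catsper4 reached 14.1 CPM, above Leydig cells, while Sertoli cells held 5.11 to 16.4 CPM.

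**Figure D1:**
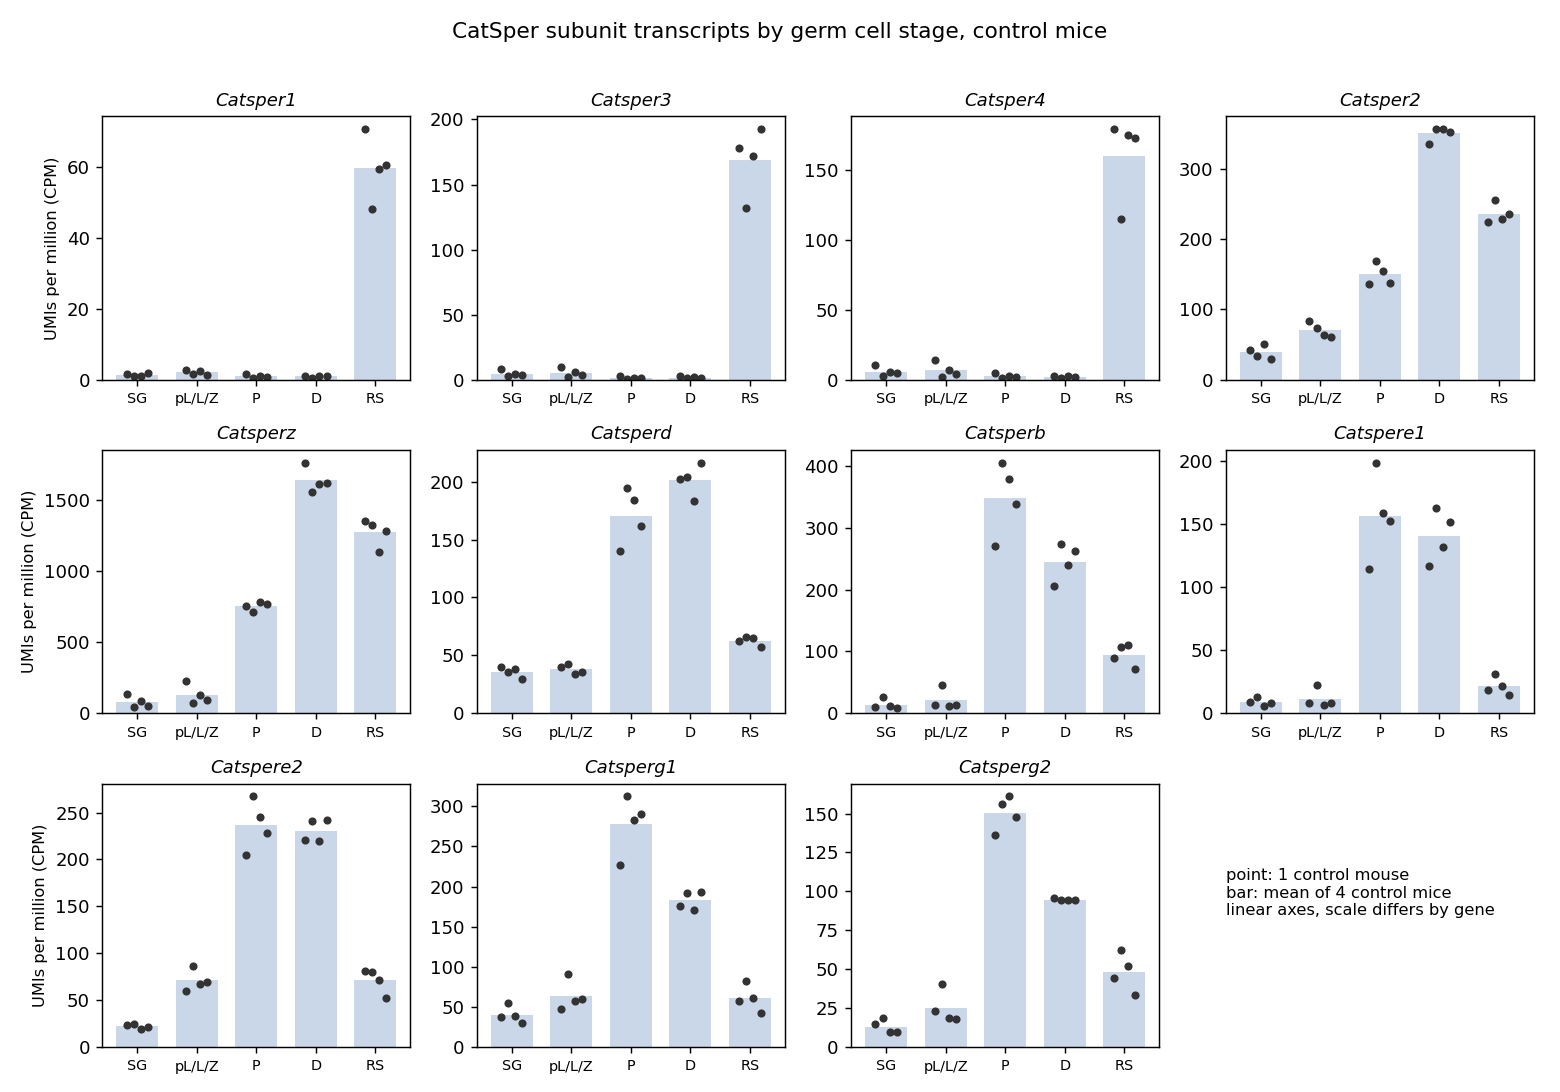
CPM of each CatSper gene by stage in the control mice, on linear axes that differ by gene, with points for the mice and bars for their mean. Catsper1, Catsper3 and Catsper4 are near 0 before RS, the mean of Catsper2, Catsperz and Catsperd is highest in D, and that of Catsperb, Catsperg1 and Catsperg2 in P.

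Catsper2 did not follow the other pore genes. It was at 136.6, 169, 155 and 138 CPM in P, at 335, 357, 357 and 353 CPM in D and at 224, 256, 229 and 236 CPM in RS. All D values lay above all P and RS values. Its log2 fold change was 1.53 ± 0.13 from P to D and -0.88 ± 0.13 from D to RS (adjusted p = 5.1e-09 and 4.2e-06, edgeR), and RS remained above P by 0.65 ± 0.13. Catsperz, the zeta subunit gene, took a similar course. It was at 756, 710.3, 784 and 764 CPM in P, at 1759.7, 1551, 1612 and 1614 CPM in D and at 1352, 1321, 1133 and 1280.0 CPM in RS. Its log2 fold change was 1.42 ± 0.23 from P to D and -0.66 ± 0.22 from D to RS (adjusted p = 2.1e-05 and 0.011, edgeR), and the latter call was lost without control replicate 3 or 4.

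Across the 20 sums of the control mice (4 mice, 5 stages), Pearson's r of log2 CPM was 0.964 between Catsper2 and Catsperz. It was 0.997 between Catsper3 and Catsper4, 0.985 between Catsper1 and Catsper3 and 0.976 between Catspere1 and Catsperd, and the lowest value was -0.515, between Catsperg1 and Catsper3. These values describe sums that share mice and libraries.

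The beta subunit gene Catsperb rose at the entry into pachytene. It was at 13.3, 45.1, 11.04 and 14.2 CPM in pL/L/Z, at 271, 406, 379 and 338 CPM in P, at 205, 274, 240.0 and 262 CPM in D and at 88.7, 107, 110.0 and 72.0 CPM in RS. Every P value was above every pL/L/Z value, where control replicate 2 stood above the other mice, and the rise was 27.8-fold (95% interval of the log2 fold change 4.28 to 5.31, adjusted p = 2.8e-12, edgeR). The pL/L/Z values overlapped those of Leydig cells (10.8 to 23.9 CPM) and Sertoli cells (31.2 to 112 CPM). The fold thus compares P with a level read as background and is not an exact size. In P against pL/L/Z 8 of the 11 members were higher and 3, the pore trio, lower, beside 35.8% and 33.9% of all genes. The median log2 fold change was 2.77 over the members and -0.08 over all genes.

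The epsilon genes both rose at this step. Catspere1 was at 8.25, 22.6, 6.25 and 8.20 CPM in pL/L/Z and at 114, 199, 159 and 153 CPM in P, a rise of 4.48 ± 0.20 that is not an exact size either, since Leydig cells were at 5.76 to 10.9 CPM and Sertoli cells at 13.5 to 56.6 CPM. Catspere2 was at 59.9, 86.3, 67.6 and 69.7 CPM in pL/L/Z and at 204, 268, 245 and 229 CPM in P, a rise of 2.35 ± 0.10, and it was already higher in pL/L/Z than in SG by 1.79 ± 0.11 (adjusted p = 1.2e-10, edgeR). The gamma genes Catsperg1 and Catsperg2 rose by 2.77 ± 0.13 and 3.26 ± 0.17 into P, the delta gene Catsperd by 2.77 ± 0.11, Catsperz by 3.26 ± 0.25 and Catsper2 by 1.71 ± 0.14. In pL/L/Z against SG 6 members were higher and none lower, beside 28.6% and 29.4% of all genes. They were Catspere2, Catsperg2 (1.05 ± 0.19), Catsper2 (0.99 ± 0.14), Catsperz (0.83 ± 0.24), Catsperg1 (0.77 ± 0.13) and Catsper1 (0.68 ± 0.28). The pL/L/Z levels of all 6 overlapped those of Sertoli cells, with Catsperz at 69.8 to 224 CPM against 216 to 530 CPM and Catspere2 at 59.9 to 86.3 CPM against 34.9 to 86.6 CPM. Those of Catspere2, Catsperg2, Catsper2 and Catsperg1 lay above the highest Leydig level, and those of Catsperz and Catsper1 did not. Depth differed, however. The median UMIs per cell were 17286.5 to 24615 in SG and 8135 to 10847 in pL/L/Z of the control mice. In the Leydig cluster, over all mice, the median was 24190. In pL/L/Z of the TDP-43 cKO mice Catsperz was between 1.31 and 19.6 CPM. The parts of RNA free of cells and of depth per cell in these differences, and in the sizes of the rises into P, were not tested.

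From P to D the members split. Catsper2, Catsperz, Catsperd (0.55 ± 0.10) and Catspere2 (0.27 ± 0.10) were called higher and Catsperg1 (-0.30 ± 0.12) and Catsperg2 (-0.37 ± 0.15) lower, beside 24.8% and 30.6% of all genes. Catsperg2 was at 136.4, 156, 161 and 148 CPM in P and at 95.6, 94.2, 94.5 and 94.4 CPM in D, without overlap. The small changes depend on the scaling, because the median of all genes was -0.19 under the trimmed mean of M-values (TMM), 0.03 with median-of-ratios factors and -0.49 with total UMIs. All genes called higher and lower numbered 5058 and 6239 under the first, 6147 and 4979 under the second and 3675 and 8276 under the last. The gamma calls were lost with median-of-ratios factors, and Catspere2 was at -0.03 with total UMIs and -0.17 with clusters named by score alone, where the Catsperd call was also lost (0.12). With total UMIs, Catsper2 and Catsperz stayed called at 1.23 and 1.11. Catsperb and Catspere1 did not pass the test from P to D, with 95% intervals of the log2 difference of -0.62 to 0.22 and -0.15 to 0.48, although Catsperb was called lower with no filter (-0.46), without control replicate 2 (-0.40) and with clusters named by score alone (-0.56).

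From D to RS 8 members fell and the pore trio rose, beside 36.9% of all genes called lower and 39.7% higher. Catspere1 was at 117, 163, 131 and 152 CPM in D and at 18.3, 31.4, 21.7 and 14.7 CPM in RS, a fall on the log2 scale by 3.08 ± 0.18. Catspere2 fell by 2.02 ± 0.10, Catsperd fell by 2.00 ± 0.11, Catsperg1 fell by 1.94 ± 0.13, Catsperb fell by 1.70 ± 0.22 and Catsperg2 fell by 1.33 ± 0.16. No D value of these genes overlapped a value of the RS sums, which pool the clusters described below. The RS levels of all 6 lay above the highest Leydig level, but those of Catspere1 (Sertoli cells 13.5 to 56.6 CPM), Catsperb, Catspere2, Catsperg1 and Catsperg2 overlapped Sertoli cells, so the sizes of these falls are not exact. The median UMIs per RS cell were 2664.5 to 24666 in the control mice, and the part of depth was not tested. Relative to P, the log2 fold changes in RS were between -2.91 and -1.45 for these 6 genes and 0.75 ± 0.22 for Catsperz. The summed level of the 11 members was 1995 to 2418 CPM in P, 3014 to 3131 CPM in D and 2150 to 2356 CPM in RS.

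**Figure D2:**
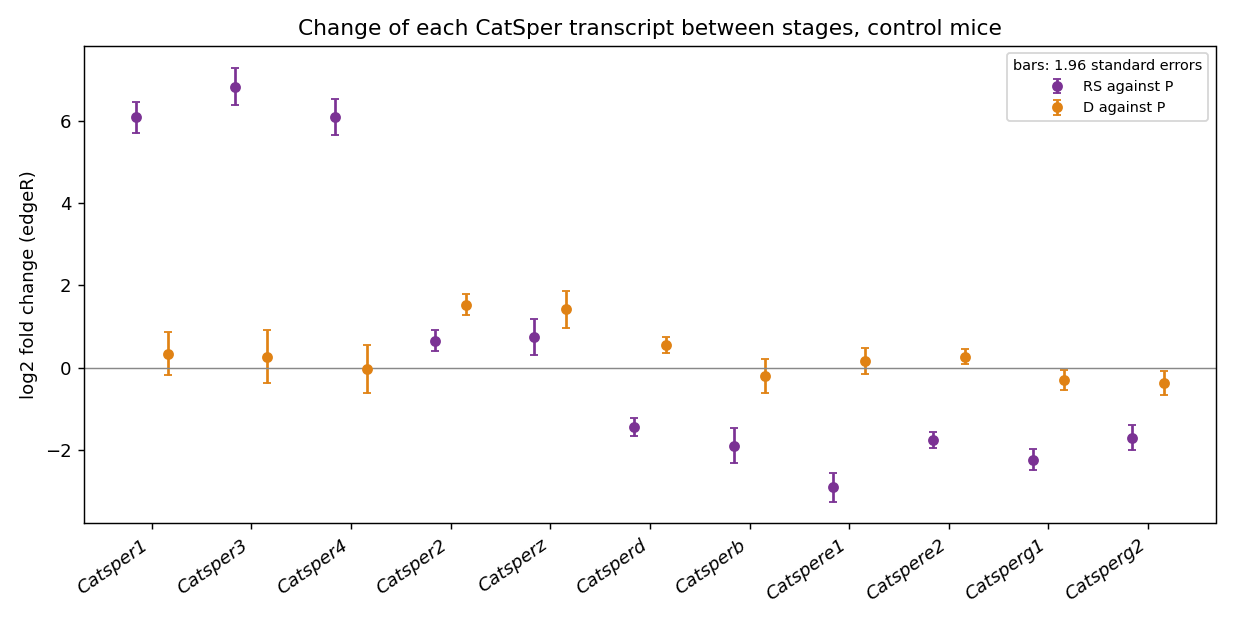
Log2 fold changes of each CatSper gene between stages of the control mice by edgeR for RS against P and D against P, with bars for 95% intervals. Catsper1, Catsper3 and Catsper4 are over 6 on the log2 scale in RS against P, Catsper2 and Catsperz are raised in D, and the beta, gamma, delta and epsilon genes are below 0 in RS against P.

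The RS sums were made of 3 clusters, and the trio differed among them. The first, low in the acrosomal gene Acrv1, is the cluster whose naming was described above. There Catsper3 was at 33.7, 57.4, 51.8 and 60.5 CPM in the control mice, and in the second, high in the spermatid gene Tsga8, it was at 229, 214, 211 and 228 CPM. Catsper1 was at 20.7 to 27.9 CPM in the Acrv1-low and 67.9 to 77.5 CPM in the Tsga8-high cluster, and Catsper4 at 54.3 to 63.3 and 166 to 211 CPM. The mice did not overlap between these clusters for any of the 3 genes. Catsper2 lay the other way, at 301 to 355 CPM in the Acrv1-low and 188 to 213 CPM in the Tsga8-high cluster, as did Catsperb, at 117 to 198 and 38.5 to 55.7 CPM. Catsperz overlapped, at 1356 to 1755 and 1131 to 1411 CPM.

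In the remaining RS cluster, whose cells had a median of 2703 UMIs against 6340 in the Acrv1-low cluster, Catsper1 was at 103 to 115 CPM, Catsper3 at 241 to 292 CPM and Catsper4 at 242 to 316 CPM. Catsperz was low there, at 205 to 673 CPM. Catsperb was at 176 to 350 CPM and Catspere2 at 171 to 278 CPM there. Both ranges overlapped those in D, 205 to 274 and 219.5 to 242 CPM. Catspere1 (27.2 to 123.5 CPM) overlapped D through control replicate 2, and Catsperd, Catsperg1 and Catsperg2 lay below every D value. The Acrv1-low cluster made up 67.1% of the RS cells of control replicate 2, which had the lowest RS levels of the trio, and 21.9% to 30.9% in the other control mice. These cluster values are a description, with no test, and the part of the cluster shares in the spread among mice was not tested.

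**Figure D3:**
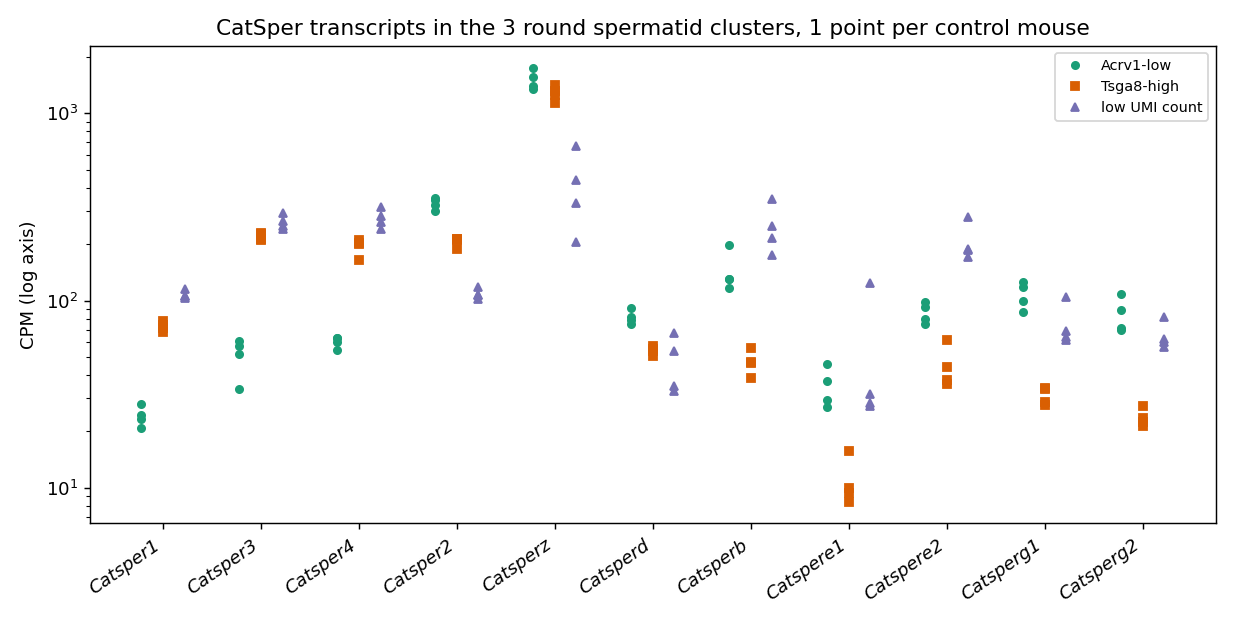
CPM, on a log axis, of CatSper genes in the Acrv1-low, Tsga8-high and low-UMI clusters of RS, with 1 point per control mouse. Catsper1, Catsper3 and Catsper4 are lowest in the Acrv1-low cluster in every control mouse, and Catsperb, the Catspere genes and the Catsperg genes are lowest in the Tsga8-high cluster.

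Proteins of the channel complex with other symbols were given by 6 measured genes. Efcab9, whose product pairs with zeta, Tmem249 and Tmem262 were higher in RS than in P by log2 fold changes of 6.12, 6.42 and 6.10. Their P levels, at most 6.26, 3.13 and 3.04 CPM, and their D levels were not above the highest in Leydig cells (9.60, 4.801 and 7.04 CPM). These folds thus compare RS with levels read as background. The differences among the earlier stages are also within such levels for Efcab9, Tmem249 and Tmem262. Trim69 was higher by 0.70, and C2cd6 (0.16) and the transporter-family gene Slco6c1 (0.13) did not pass the test. Into P, Slco6c1, Trim69 and C2cd6 rose by 3.66, 3.01 and 2.92, while Efcab9 and Tmem262 were called lower at -0.63 and -0.61 and Tmem249 was at -0.39. From P to D, Trim69, Slco6c1 and C2cd6 rose further, by 1.33, 0.95 and 0.62, and Tmem249 was called lower at -0.66. From D to RS Trim69, Slco6c1 and C2cd6 were lower, at -0.63, -0.82 and -0.46, and Tmem249, Tmem262 and Efcab9 higher, at 7.07, 6.29 and 6.13. In pL/L/Z against SG, Slco6c1 (1.07), C2cd6 (0.92) and Trim69 (0.88) were higher, and Tmem262 (0.63), Tmem249 (0.52) and Efcab9 (0.48) did not pass the test. The median from P to RS was 3.40 over the 6 genes, -1.45 over the CatSper members and 0.10 over all genes.

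Of 13 other genes of sperm ion transport, 5 were higher and 5 lower in RS than in P (40.7% and 37.4% of all genes), with a median of -0.12. For the other steps, the shares over all genes are those given beside the CatSper counts. Atp1a4, the sodium pump isoform of sperm, rose by 6.28, and Lrrc52 and Kcnu1, which encode the sperm potassium channel pair, rose by 6.00 and 4.38. Cnnm4, Cnnm2 and Slc26a8 fell by 1.93, 1.73 and 1.48. Into P, 6 of the 13 were higher, led by Slc9c1, the sperm sodium-proton exchanger (3.56), Atp2b4 (2.96) and Slc9b1 (2.58), and 3 were lower, Cnnm2 (-1.83), Hvcn1 (-1.17) and Atp1a4 (-1.10). From P to D 5 were higher, led by Slc26a3 (1.22), Kcnu1 (1.10) and Slc9b1 (0.86), and Cnnm2 was lower (-3.20). From D to RS 5 were higher, led by Atp1a4 (6.35), Lrrc52 (5.89) and Kcnu1 (3.29), and 5 lower, led by Slc26a8 (-2.02), Cnnm4 (-1.80) and Slc9c1 (-1.39). In pL/L/Z against SG 5 were higher, led by Atp1a4 (1.06), Slc9c1 (0.999) and Cnnm2 (0.997), and 5 lower, led by Slc9b2 (-4.57), Hvcn1 (-2.22) and Kcnu1 (-1.14).

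Of 11 genes of sperm cAMP signalling, calcineurin (Ppp3r2 and Ppp3cc) and the fibrous sheath, 10 were higher in RS than in P and 1, Ppp3cc (-0.29), was lower, beside 40.7% and 37.4% of all genes, with a median of 3.37. The largest rises were those of Ropn1 (6.50), Akap4 (6.33) and Cabyr (6.16), which encode fibrous sheath proteins. Into P 5 were higher, led by Ropn1l (3.32), Ppp3r2 (3.11) and Adcy10, the soluble adenylyl cyclase (2.42), and 4 were lower, of which Prkar2a (-1.88), Akap14 (-1.14) and Cabyr (-1.005) changed most. From P to D 5 were higher, led by Ppp3r2 (1.81), Prkaca (0.92) and Ropn1l (0.92), and none was lower. From D to RS 7 were higher, led by Akap14 (7.09), Ropn1 (6.74) and Akap4 (6.62), and Ppp3r2 (-1.003), Ppp3cc (-0.62) and Prkaca (-0.47) were lower. In pL/L/Z against SG 5 were higher, led by Akap14 (1.28), Ppp3cc (1.22) and Akap3 (0.95), and Adcy10 was lower (-0.53). For Ropn1, Akap4, Cabyr and Akap14 here, and for Atp1a4 and Lrrc52 above, no P or D level exceeded the highest Leydig level. Their folds into P and into RS therefore involve levels read as background too.

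The genes most like the mean of the 11 members over the 20 control sums, among 20369 compared by Pearson's r, were Ccdc146 (0.993), Ms4a13 (0.991), Riiad1 (0.990), Ttll13 (0.989) and Ccdc192 (0.988). For the mean of Catsper1, Catsper3 and Catsper4, a choice made after their values were seen, they were Erich3, 1700067P10Rik, Spaca7, 4930547H16Rik and Sun5, each at 0.997.

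In the P, D and RS cells that the cKO mice still had, no member passed the test. These fits kept cells in which the targeted gene had a UMI. Without such cells, TDP-43 cKO replicates 2 and 3 had 6 of 132 and 3 of 97 P cells, 2 of 27 and 2 of 30 D cells and 36 of 68 and 65 of 94 RS cells, and the NELF-B cKO mice had 167 of 184 and 34 of 41 P cells and 402 of 505 and 10 of 14 RS cells. The P and D comparisons of TDP-43 cKO thus rest almost wholly on cells that held Tardbp UMIs and could not be fitted without them, whereas in RS of both genotypes and in P and D of NELF-B cKO 0 members were called without them too. In P, members other than the pore trio had log2 fold changes between -0.16 and 0.23 in NELF-B cKO and between -0.18 and 0.10 in TDP-43 cKO relative to control. Few genes were called at all by edgeR, 0.0978% higher and 0.0196% lower of 15331 in NELF-B cKO and 0.013% higher and 0% lower in TDP-43 cKO. At an unadjusted p under 0.05 there were 0 members in NELF-B cKO (1681 of all genes) and 3 in TDP-43 cKO (1053 of all genes), the pore trio, and DESeq2 called 0 members in NELF-B cKO (1.06% of all genes higher, 0.292% lower) and Catsper4 in TDP-43 cKO (0.241% and 0.339%). Both TDP-43 cKO mice with at least 10 P cells were under the lowest control mouse for 4 members, the trio and Catsperz, as for 11.4% of all genes. Catsper4 and Catsper1 had no UMI in P of TDP-43 cKO replicates 2 and 3, against 1.25 to 4.65 and 0.568 to 1.61 CPM in the control mice. These control levels were not above the highest Leydig levels and are read as background, so no fold is given.

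Catsperb was at 443 and 249 CPM in P of the NELF-B cKO mice and at 378 and 345 CPM in TDP-43 cKO replicates 2 and 3, and the differences from control were 0.01 (95% interval -0.43 to 0.44) and 0.04 (-0.39 to 0.48). The NELF-B cKO mice lay on either side of the control range of 271 to 406 CPM, and the TDP-43 cKO mice lay within it. Catsperz was at 824 and 569 CPM in NELF-B cKO and at 666 and 671 CPM in TDP-43 cKO, with intervals of -0.37 to 0.16 and -0.45 to 0.08. Catspere1 was at 255 and 104 CPM in NELF-B cKO (0.23, interval -0.38 to 0.83) and at 179.6 and 157 CPM in TDP-43 cKO (0.10, interval -0.51 to 0.71). The 2 NELF-B cKO mice differed. Without replicate 2, which had 41 P cells, the differences were 0.71 for Catspere1 and 0.59 for Catspere2, from 1 mouse.

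In RS the pore trio was present in both cKO genotypes. Catsper3 was at 140.4 and 135 CPM in NELF-B cKO and at 70.4 and 221 CPM in TDP-43 cKO replicates 2 and 3, against 132 to 193 CPM in control. Its differences were -0.37 (95% interval -1.09 to 0.35) and -0.35 (-1.04 to 0.33), and the TDP-43 cKO mice lay on either side of the control range. Catsper1 was at 47.9 and 55.0 CPM in NELF-B cKO and at 29.6 and 61.2 CPM in TDP-43 cKO, with intervals of -0.91 to 0.24 and -1.07 to 0.01. Catsper4 was at 134 and 161 CPM in NELF-B cKO and at 87.8 and 162 CPM in TDP-43 cKO, with intervals of -0.79 to 0.28 and -1.02 to 0.02. The lower bounds of these 6 intervals were between -1.09 and -0.79.

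Of the other members in RS, Catspere1 had the widest difference, 0.67 in TDP-43 cKO (interval -0.06 to 1.41), at 20.9 and 53.8 CPM against 14.7 to 31.4 CPM. Catsper2 was at 228 and 254 CPM in NELF-B cKO and at 278 and 195 CPM in TDP-43 cKO, and Catsperz at 1247 and 1222 CPM and at 1489 and 1028 CPM. For no member did all fitted cKO mice of a genotype lie below every control mouse in RS, where this held for 8.39% of 18029 genes in NELF-B cKO and 6.35% in TDP-43 cKO. By edgeR 0% of genes were called in either direction in both genotypes, with 553 and 2174 genes and 0 members at an unadjusted p under 0.05. DESeq2 called 0% in NELF-B cKO and 0.16% higher and 0.25% lower in TDP-43 cKO, and no member. The Acrv1-low cluster held 57.4% and 43.6% of the RS cells of TDP-43 cKO replicates 2 and 3 and 38.0% and 42.9% of those of the NELF-B cKO mice, the last from 14 cells. In the Tsga8-high cluster Catsper3 was at 192 CPM in NELF-B cKO replicate 1 and at 246 CPM in TDP-43 cKO replicate 3, the cKO mice with 10 or more such cells. In the low-UMI cluster of TDP-43 cKO replicates 2 and 3 (20 and 33 cells), Catsper2 was at 0 and 49.5 CPM (0 and 8 UMIs) against 101 to 118 CPM in control, Catsperd at 15.2 and 18.6 CPM (1 and 3 UMIs) against 33.0 to 67.0 CPM, Catsperg2 at 15.2 and 30.9 CPM (1 and 5 UMIs) against 56.6 to 81.6 CPM and Catsper4 at 394 and 415 CPM (26 and 67 UMIs) against 242 to 316 CPM. There 3 members lay below and 2, Catsper4 and narrowly Catspere2, above all control mice, as did 26.4% and 10.3% of the 16607 genes with at least 10 UMIs, and no test was made. In the low-UMI cluster of NELF-B cKO replicate 1 (151 cells) Catsper2 was at 97.9 CPM, below control. Catsper1 (124 CPM), Catsper3 (329 CPM) and Catsperg2 (83.9 CPM) were above control in that mouse, and the remaining members were within the control range. The share of all genes outside the control range in that 1 mouse is not given here, so these members cannot be set against it. The part of the cluster shares in these differences was not tested.

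**Figure D4:**
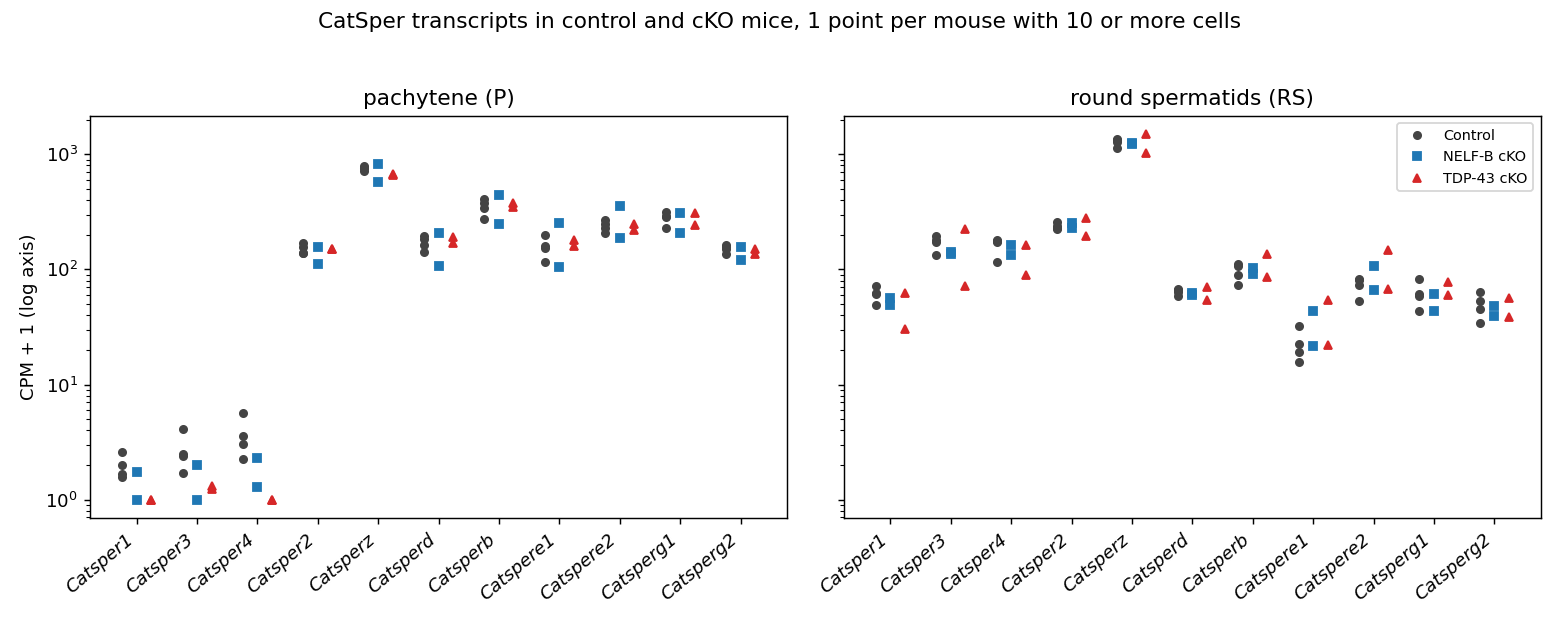
Levels of each CatSper gene in P and RS of control, NELF-B cKO and TDP-43 cKO mice on a log axis of CPM plus 1, so that a gene with no UMI lies at 1, with 1 point per mouse that had at least 10 cells. The pore trio is low in P in every genotype and present in RS in every genotype, and in RS no gene has all cKO points of a genotype below all control points.

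In D, NELF-B cKO was fitted from replicate 1 alone, which was assumed to vary like the other groups, and 2.45% and 1.75% of 14882 genes were called higher and lower by edgeR. No member was among them. Catsperz was the 1 member with an unadjusted p under 0.05 (2709 of all genes), at 1456 CPM against 1551 to 1759.7 CPM in control (difference -0.24 ± 0.08, adjusted p = 0.12). In TDP-43 cKO 0.0202% and 0.00672% of genes and no member were called, with 3 members and 1490 of all genes at an unadjusted p under 0.05, Catsper3, Catsper4 and Catspere2 being the members. Catspere2 was at 268 and 261 CPM against 219.5 to 242 CPM in control (0.17 ± 0.08, adjusted p = 0.48, edgeR), and Catsper3 had no UMI in either mouse. In D both TDP-43 cKO mice were below the lowest control mouse for 4 members (11.8% of all genes), the trio and Catsperz, which was at 1489.7 and 1542 CPM, and above the highest for 2 (12.7% of all genes), Catspere2 and Catsperg1. The NELF-B cKO mouse was below for 2 members (20.2%), Catsper3 and Catsperz, and above for 4 (34.5%). DESeq2 called 1.85% and 2.41% of genes in NELF-B cKO, 0.148% and 0.208% in TDP-43 cKO, and no member in either. Of the related genes, Ppp3r2 (-0.33) and Ropn1l (-0.33) were called lower in D of NELF-B cKO, and none in P or RS of either genotype.

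The change from P to RS was compared between genotypes directly, with mouse as a block. No member differed from control by edgeR, which called 0.0102% of 19601 genes higher and 0.0561% lower in NELF-B cKO and 0% and 0.0204% in TDP-43 cKO, and DESeq2 called no member either. At an unadjusted p under 0.05 there were 0 members in NELF-B cKO (1233 of all genes) and 3 in TDP-43 cKO (1604 of all genes), the trio, whose P values there were at or near 0. Catsper4 was called higher when either control replicate 1 or control replicate 2 was left out. For Catsper2 the difference of the changes was -0.13 (95% interval -0.59 to 0.33) in NELF-B cKO and -0.33 (-0.78 to 0.11) in TDP-43 cKO. For Catsperd it was -0.29 (-0.79 to 0.21) and -0.45 (-0.91 to 0.01).

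In SG and pL/L/Z cells combined, with cKO cells that held a UMI of the targeted gene left out, 1 member was called. Catsperd was at 40.0, 38.5, 36.2 and 32.9 CPM in the control mice and at 20.8, 22.6 and 19.2 CPM in the TDP-43 cKO mice, without overlap (log2 fold change -0.76 ± 0.11, adjusted p = 0.047, edgeR). In this fit 0.112% of 19559 genes were called higher and 0.046% lower, and 8 members and 5082 of all genes had an unadjusted p under 0.05. The call was lost without any 1 control or TDP-43 cKO mouse, and 8 members were called lower by DESeq2 (4.28% of all genes higher, 10.1% lower) or by edgeR without either NELF-B cKO mouse. The share of all genes called in those edgeR fits is not given here, so the count cannot be set against it.

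Catsperz was at 181, 53.4, 104 and 76.9 CPM in these early cells of the control mice and at 2.06, 17.6 and 11.8 CPM in TDP-43 cKO (log2 fold change -3.26 ± 0.90, adjusted p = 0.076, edgeR). Catsperb was at 11.4 to 33.1 CPM in control and at 1.03, 3.60 and 5.32 CPM in TDP-43 cKO (-2.29, 95% interval -3.69 to -0.90). For 9 of the 11 members all TDP-43 cKO mice were under the lowest control mouse, as for 19.6% of all genes, the other 2 being Catsper2 and Catsperg1. In pL/L/Z alone, with no cell left out, Catsperg2 was at 10.9, 24.9 and 31.0 CPM in TDP-43 cKO against 17.9 to 40.3 CPM in control. Catspere2 was at 57.4 to 61.0 against 59.9 to 86.3 CPM there, so both overlapped, and the others of the 9 did not. Catsper2, which overlapped in the combined cells, did not in pL/L/Z alone, at 44.2 to 54.6 against 61.5 to 83.1 CPM. The share of all genes without overlap in pL/L/Z alone is not given here, so these members cannot be set against it. The combined TDP-43 cKO sums kept 574, 1001 and 1029 of 1266, 1945 and 2161 cells. With no cell left out, median UMIs per SG cell were 39165, 23799 and 25337 in the TDP-43 cKO mice against 17286.5 to 24615 in control. In pL/L/Z they were 14539, 9467.5 and 10427 against 8135 to 10847. The parts of depth per cell and of the mix of SG and pL/L/Z were not tested. In NELF-B cKO all mice were under the lowest control mouse for 2 members, as for 10.7% of all genes. There edgeR called no member, 0.0102% of genes higher and 0.0153% lower, with 2 members, Catsperd (-0.51) and Catsperg1 (-0.49), and 3028 of all genes at an unadjusted p under 0.05, and DESeq2 called Catsperd lower (3.83% of all genes higher, 3.72% lower). The NELF-B cKO mice differed widely from each other, with Catsperz at 102 and 8.62 CPM.

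The members were also low in somatic cells of the same TDP-43 cKO libraries. In Leydig cells Catsperz was at 126, 29.6, 107 and 50.2 CPM in the control mice and at 0.480, 8.71 and 6.77 CPM in TDP-43 cKO (log2 difference -4.43, 95% interval -6.61 to -2.24). For 10 of 11 members all TDP-43 cKO mice were under the lowest control mouse in Leydig cells, as for 12.4% of all genes there, and for 11 of 11 in Sertoli cells, the supporting cells of the tubules, as for 22.9%. Sertoli sums differed in depth, with 1217293 UMIs in 236 cells, 4169272 in 438, 1958672 in 170 and 4007081 in 331 of the control mice. The TDP-43 cKO mice held 18612044 UMIs in 597 cells, 6998155 in 340 and 8875726 in 353. Leydig sums held 1115191 to 3124190 UMIs in 51 to 178 cells of the control mice. Those of the TDP-43 cKO mice held 29197367 UMIs in 858 cells, 2412163 in 128 and 3991090 in 182. Catsper4 had 2 to 16 UMIs and Catsperz 56 to 395 UMIs in Leydig cells of the control mice. The part of depth in the Leydig and Sertoli counts was not tested. In Leydig cells edgeR called 0% of 13576 genes in TDP-43 cKO, with 10 members and 2605 of all genes at an unadjusted p under 0.05. In Sertoli cells it called 4.15% of 15357 genes lower and 3.07% higher, with Catsper4 among the former (-3.69 ± 0.62, adjusted p = 0.038). Of the related genes, Efcab9 (-2.94), Slc26a8 (-1.51), Ropn1 (-4.38), Adcy10 (-1.67) and Cabyr (-1.42) were called lower there. In NELF-B cKO edgeR called 0% of genes in either somatic type, with 5 members and 1314 of 13576 genes in Leydig cells and 2 members and 1894 of 15357 genes in Sertoli cells at an unadjusted p under 0.05. The 11 members summed to 133 and 31.6 CPM in Leydig cells of NELF-B cKO replicates 1 and 2, against 157 to 254 CPM in control. In Sertoli cells they summed to 452 and 87.8 CPM, against 441 to 926 CPM.

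In barcodes of 1 to 100 UMIs the 11 members summed to 1957 to 2352 CPM in control, 1849 and 367 CPM in NELF-B cKO and 111 to 689 CPM in TDP-43 cKO. In the control mice the same sum was 441 to 926 CPM in Sertoli cells, 157 to 254 CPM in Leydig cells and 200.3 to 334 CPM in SG, which overlapped Leydig cells and lay below Sertoli cells. Catsperd and Catsperg1 were the members above the highest Leydig level in SG of each control mouse. Catsperd stood at 29.5 to 39.7 CPM in SG, 13.5 to 23.4 CPM in Leydig cells and 24.5 to 52.8 CPM in Sertoli cells, and Catsperg1 at 30.2 to 55.0, 9.86 to 19.6 and 43.9 to 83.0 CPM. The part of RNA free of cells in the early differences was not tested. Over whole libraries the members summed to 1628 to 1997 CPM in control, 1652 and 264 CPM in NELF-B cKO and 82.2 to 604 CPM in TDP-43 cKO, a sum in which fewer cells of a type and less RNA per cell cannot be told apart.

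**Figure D5:**
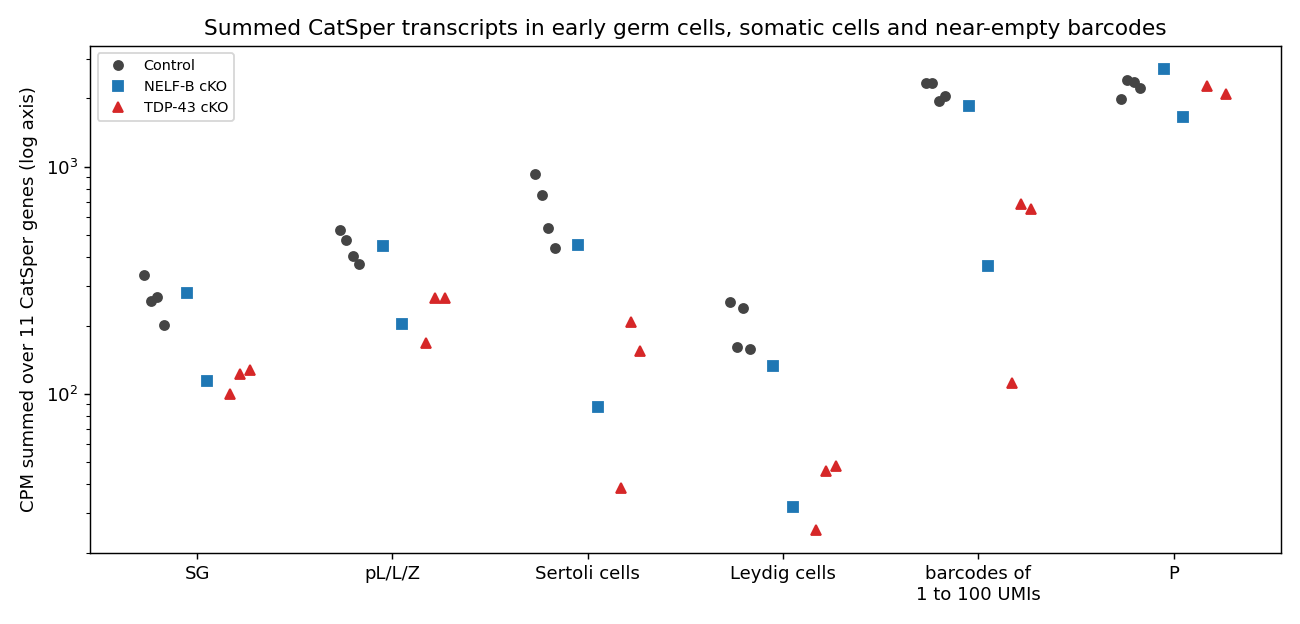
CPM summed over the 11 CatSper genes, on a log axis, in SG, pL/L/Z, Sertoli cells, Leydig cells, barcodes of 1 to 100 UMIs and P, with 1 point per mouse and sums of under 10 cells left out. The TDP-43 cKO points are under the control points in all of these but P, where they overlap.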

How the data were processed

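Testis single-cell libraries of 9 mice (4 control, 2 NELF-B cKO, 3 TDP-43 cKO) were analysed from the UMI counts deposited by the authors, unnormalised gene by barcode matrices made with Cell Ranger (7.0.0 per the methods, mm10), although the matrix headers name an older major version. Intron counting, whose default differs between versions and which bears on long genes, is not given in the sources used here. Filters of more than 1000 genes and less than 10% mitochondrial UMIs left 45132 barcodes, which were clustered (scanpy 1.11.5, leidenalg 0.10.2, 40 principal components, resolution 0.8). Of 25 clusters, 20 were named from markers, giving 27945 cells. CatSper genes, the related lists and the targeted genes were left out of clustering. A cluster that scored as D with over 50% of RS markers was counted as RS, a rule set after the clusters were seen. The doublet caller marked 0.336% of named cells, which was taken as a failed run, so no doublets were removed.

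UMIs were summed per mouse and stage (at least 10 cells) and fitted over all genes with edgeR 4.0.16 (TMM, expression filter, quasi-likelihood F test, Benjamini-Hochberg, threshold 0.05), with mouse as a block between stages. DESeq2 1.42.0, other scalings, filters, clusterings and each mouse left out were alternatives. Intervals are nominally 95%, taken as 1.96 standard errors to each side, and can be too narrow with so few mice. Each library is 1 mouse, and replicate numbers were not taken to pair mice across genotypes. All members were named, with every measured complex gene, up to 3 called genes per direction of the other lists and the 5 most similar genes. Members and lists were chosen with earlier results of these data known. Scripts were tested on simulated counts.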

Additional observations from a re-analysis of the deposited data

Results flagged for a closer look

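Of 55 sets of 4 control values (11 genes in 5 stages), 5 held a mouse that stood apart by Dixon's criterion. Chance gives about 1 in 20 for independent sets, but these sets share mice and libraries, so that rate does not apply to their count. The mouse that stood apart was control replicate 2 in all 5, and its deposited name contains the word het, not explained in the labels. Catsperb was at 25.68 CPM in SG of this mouse against 8.78 to 11.63 CPM in the others, and at 45.07 CPM against 11.04 to 14.16 CPM in pL/L/Z. Catspere1 was at 22.61 CPM against 6.253 to 8.247 CPM in pL/L/Z. Catsper1 was at 0.4444 CPM in D against 1.082 to 1.135 CPM, levels read above as background. Catsper4 was at 114.9 CPM in RS against 173.1 to 179.8 CPM. In barcodes of 1 to 100 UMIs of the same mouse Catsperb was at 202 CPM against 63.7 to 104 CPM in the others and Catsper4 was at 26.9 CPM against 61.5 CPM or more in the others, and the part of these in the values above was not tested.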

How the results depend on the processing

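Of 860 values of the stage comparisons under alternatives, 799 kept their direction and side of the threshold and 3 reversed. For the early, the late and the P to RS genotype comparisons, 437 of 480, 1162 of 1244 and 345 of 414 did. Catspere2 from P to D was -0.03105 with total UMIs and -0.17 with clusters named by score alone, and Catsper4 from P to D was 2.79 with the latter, where the Acrv1-low cluster counts as D. These 2 settings, and the summing of the epsilon pair, were chosen after seeing the data. The 2 members lower from P to D became 0 with DESeq2, with median-of-ratios factors and with either gamma or epsilon genes summed, and ranged from 0 to 3 with 1 mouse left out (0 without control replicate 1). The 1 member lower in early TDP-43 cKO cells became 8 with DESeq2 and 0 with median-of-ratios factors, total UMIs, no filter, clustering at resolution 1.5, SG alone, or targeted-UMI cells left out of the control mice too, and ranged from 0 to 8 with 1 mouse left out. In early NELF-B cKO cells DESeq2 called 1 lower. In P of NELF-B cKO 0 to 2 were higher with 1 mouse left out. In P of TDP-43 cKO 1 was lower with DESeq2 and 1 with no filter, and in D 2 were lower with no filter. For the P to RS difference in TDP-43 cKO, 3 were higher with no filter and 0 to 1 with 1 mouse left out. Shares of all genes called in the fits with 1 mouse left out are not given here. Over all genes in early TDP-43 cKO cells, edgeR called 22 higher and 9 lower and DESeq2 836 and 1970. Deviations of same-numbered mice correlated at 0.38 and 0.34 (control with NELF-B cKO), -0.19, -0.10 and 0.01 (control with TDP-43 cKO) and -0.42 and -0.27 (both cKO), so the numbers, which no label ties to litters, were not taken to pair mice. Prefixes in the deposited library names, not explained in the labels, were not used. With a replicate block, 0 members were lower in early TDP-43 cKO cells. In D of NELF-B cKO, from 1 mouse, the differences with that block were 0.48 for Catspere1 and -0.35 for Catsperz. The causes were not tested. Fitted RS sums of 14, 68 and 94 cells in 3 of the 4 cKO mice limit precision, and with 1 to 3 mice per cKO genotype the p-values rest on the spread among few animals.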

Other observations

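A cluster of 1789 barcodes stayed unnamed because it had only 2 markers of a stage, those of P, at a median of 3103 UMIs. Several auxiliary subunit transcripts were higher there than in the P sums of the control mice. Catsperb was at 1291 to 1520 CPM there, Catspere1 at 391 to 657 CPM and Catspere2 at 584 to 841 CPM, while the P sums held 271 to 406, 114 to 199 and 204 to 268 CPM. Catsperz was lower than in P, at 179 to 562 CPM against 710.3 to 784 CPM, and Catsper3 was at 2.33 to 8.95 CPM. The 11 members together reached 3907 to 4791 CPM. In TDP-43 cKO replicates 2 and 3 Catsperb was at 1978 and 2298 CPM, Catsperz at 78.5 and 82.0 CPM and the 11 members at 5636 and 6598 CPM, outside the control ranges. In this genotype Catsper2, Catsperb, Catspere1 and Catspere2 lay above all control mice (4 members, beside 9.85% of 16138 genes with at least 10 UMIs) and Catsper4 and Catsperz below (2 members, beside 21.7%). In NELF-B cKO replicates 1 and 2 Catsperb was at 1728 and 1608 CPM, above control, and Catsperz at 283 and 50.03 CPM, with 1 member above (5.3% of genes) and 1, Catsper4, below (11.8%). These barcodes entered no comparison, and the values are given without a test.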
